A study of Mus musculus with 52 samples.

Results

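Gastrocnemius muscle from aged male C57BL/6 mice (22 to 24 months old) was compared between mice that drank metformin plus leucine and mice that drank metformin alone, after hindlimb unloading and 7 d of reloading. These groups are called RL7_ML (the combination) and RL7_M (metformin alone). They were chosen by the drink and the loading stage given for each library, and hold 4 libraries each, 8 of the 52 libraries of the series. All 8 mice shared the strain, sex, age range, unloading and reloading, and each drug was given in the drinking water, at doses not given in the sources used here. The labels give each library a replicate number but not the animal behind it, so the library is the unit of every test. The edgeR p-values and intervals use a spread between libraries estimated over all 52 libraries in 13 groups, not from these 8 alone. The comparison therefore asks what leucine added to metformin in reloaded muscle. The other libraries came from ambulatory mice on water and from mice given water, metformin, leucine or the combination in the unloaded state (HU), at 7 d (RL7) or at 14 d (RL14) of reloading. Libraries are named by group and replicate number, which are 1, 3, 4 and 6 in RL7_ML and 1, 2, 3 and 4 in RL7_M.

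Metformin is a glucose-lowering drug that restrains mitochondrial respiration and activates AMP-activated protein kinase, a sensor of low cellular energy. Leucine is a branched-chain amino acid that activates the growth-controlling kinase complex mTORC1, which AMP-activated kinase restrains, and is itself broken down in muscle mitochondria. Gastrocnemius is a mostly fast-twitch calf muscle that wastes when unloaded and regrows when weight bearing returns.

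RNA was measured by total RNA sequencing after ribosomal RNA removal. Libraries held 17124804 to 20334981 counts in RL7_ML and 15901825 to 19393161 counts in RL7_M. Levels below are CPM, a gene's counts scaled to the size of its library after TMM scaling. Myh4, the fast myosin heavy chain that marks this muscle, stood at 44670 to 59389 CPM in RL7_ML and 39550 to 50774 CPM in RL7_M. Library RL7_M 4 stood apart from the other 7. Its 14 adipocyte markers summed to 6064 CPM, against 1824 to 2541 CPM in RL7_ML and 1771 to 2653 CPM in the other RL7_M libraries. On the first principal component of the 8 libraries, which held 31.4% of the variance, RL7_M 4 lay at 70.9 and the others between −26.9 and 6.31. Its mitochondrially encoded transcripts took 5.53% of counts, against 7.56% to 10.4% in RL7_ML and 7.92% to 9.22% in the other RL7_M libraries. Liver transcripts were also present. Albumin (Alb) was at 0.215, 0.176, 9.85 and 0.721 CPM in RL7_ML 1, 3, 4 and 6, and at 16.7, 124, 0 and 3.61 CPM in RL7_M 1 to 4. RL7_M 1 and 2 are among the 12 libraries of the series with Alb above 16 CPM. Results are therefore given with and without RL7_M 4, and where it matters without the liver-transcript libraries.

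No gene differed between RL7_ML and RL7_M at an adjusted p under 0.05 (0 of 16668 genes tested, 0%, edgeR quasi-likelihood test with Benjamini-Hochberg adjustment), and the smallest edgeR adjusted p was 0.417. At an unadjusted p under 0.05 there were 253 genes higher in RL7_ML (1.52% of those tested) and 381 lower (2.29%), 634 together, while 5% of the genes tested is 833. DESeq2 called 1 gene, Rabep2, and limma voom with library quality weights called 4, all lower (Rabep2, A930016O22Rik, Gm4814 and A630019I02Rik, of which the last 3 are known only by clone or predicted names). The 4 libraries of each group did not overlap in 189 genes that were higher in RL7_ML (1.13%) and 153 that were lower (0.918%). With 4 libraries in each group some genes separate fully by chance alone, so lack of overlap is no evidence of a difference by itself. The median log2 fold change over all genes was 0.01.

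The precision of the comparison varied with expression. SEs of the log2 fold changes had a median of 0.23. Of the 11257 genes whose mean level reached 1 log2 CPM, 94.5% had a 95% confidence interval that lay wholly within a 2-fold difference in either direction, and the interval reached a median of 1.27-fold to either side of the estimate. Over all genes tested the share was 73.0% and the median reach 1.37-fold. These intervals are for single genes and do not give the size of difference that would pass the adjustment. Differences above 2-fold also failed it, such as Fos at 6.96-fold (edgeR adjusted p 0.494) and Rabep2 at 2.83-fold (edgeR adjusted p 0.417).

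Fewer genes had an unadjusted p under 0.05 without library RL7_M 4. Without it, 351 of 16919 genes had an unadjusted p under 0.05, of which 144 were higher in RL7_ML (0.851%) and 207 lower (1.22%), and none passed the edgeR adjustment. Of the 381 genes lower in RL7_ML under an unadjusted p of 0.05, 124 stayed lower and under that p without RL7_M 4. Of the 253 higher genes, 61 did. A smaller group also lowers the power of the test, and these counts are not given with another library left out. How much of the drop belongs to RL7_M 4 itself was not tested. The plot of all genes shows how the fat-related and immediate early genes lie on the lower side.

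**Figure D1:**
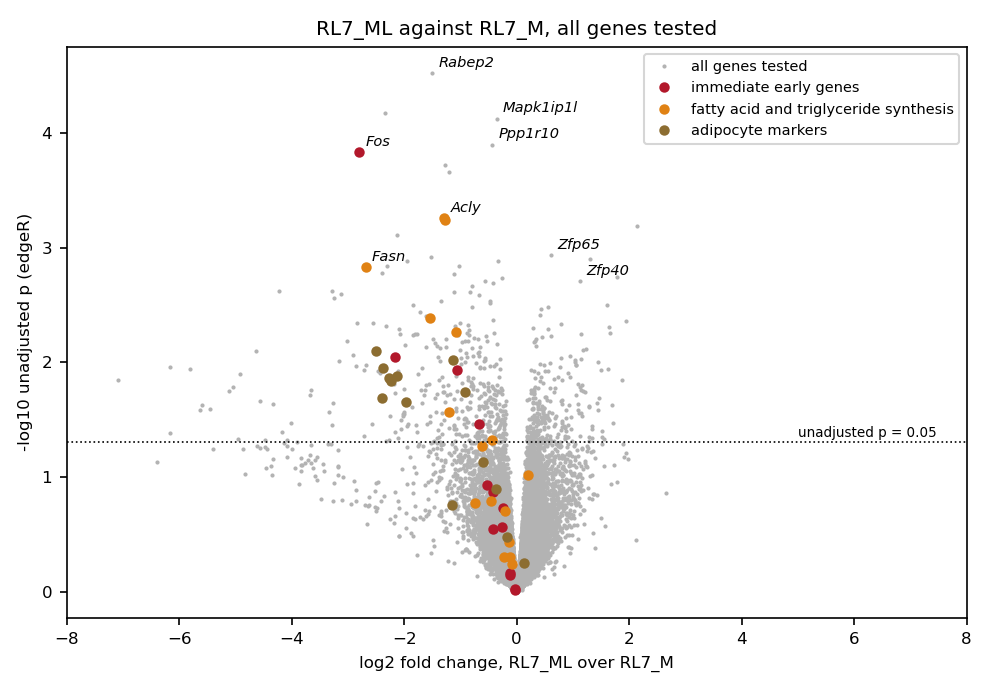
Each point is 1 of the 16668 genes tested: the x axis gives the log2 fold change of RL7_ML over RL7_M and the y axis the −log10 of the unadjusted edgeR p, with 3 gene lists coloured and an unadjusted p of 0.05 as a dotted line. No gene passed the adjusted threshold, the lowest p belongs to Rabep2, and most coloured genes lie left of 0.

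The genes of smallest p whose libraries did not overlap were taken 12 per direction among named genes whose mean level reached 1 log2 CPM. Rabep2, which encodes an endosomal effector of the small GTPase Rab5, came first on the lower side. Its level was 10.2, 13.2, 4.23 and 4.79 CPM in RL7_ML 1, 3, 4 and 6, and 24.2, 17.5, 30.2 and 19.96 CPM in RL7_M 1 to 4. Every RL7_ML library lay below every RL7_M library, which the choice of these genes required. The means were 8.10 ± 4.33 CPM in RL7_ML and 22.96 ± 5.56 CPM in RL7_M (SD, n = 4 each), a log2 fold change of −1.499 ± 0.32 (SE), with an unadjusted p of 3.01e-05 and an edgeR adjusted p of 0.417. The value was −1.56 without RL7_M 4. The edgeR call stayed above the threshold, while DESeq2 gave an adjusted p of 0.0384 and limma voom 0.0155.

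Rabep2 also varied between the other groups at 7 d of reloading. It averaged 25.1 ± 6.23 CPM with leucine alone and 3.49 ± 0.97 CPM with water (SD, n = 4 each), so the combination lay between water and either drug alone. The gene lies on the plus strand at chr7:126428759-126449245 (GRCm38), and its last exons share 763 bases in 3 stretches, between positions 126445858 and 126448872, with exons of Atp2a1 on the opposite strand. Atp2a1, the calcium pump of fast fibres and 1 of the most abundant transcripts of the tissue, stood at 16742 to 19266 CPM in RL7_ML and 17105 to 20253 CPM in RL7_M, a log2 fold change of −0.03 ± 0.16. The libraries were stranded, but whether the counting used the strand is not stated in the sources used. To which gene reads of the shared bases were counted is therefore not known, and the Rabep2 values are uncertain.

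The next genes on the lower side had small differences. Mapk1ip1l stood at 24.6, 25.9, 24.8 and 25.7 CPM in RL7_ML and at 30.8, 33.6, 27.7 and 37.3 CPM in RL7_M. The log2 fold change was −0.36 ± 0.08 (edgeR adjusted p 0.417), and −0.28 without RL7_M 4. Ppp1r10, which encodes a nuclear targeting subunit of protein phosphatase 1, stood at 17.5, 18.3, 17.1 and 21.4 CPM in RL7_ML and at 23.1, 23.6, 23.9 and 29.6 CPM in RL7_M. Its log2 fold change was −0.43 ± 0.10 (edgeR adjusted p 0.494), and −0.34 without RL7_M 4. RL7_M 4 was the highest library in both genes. Tspan7, a membrane tetraspanin, stood at 42.6, 39.6, 43.8 and 42.3 CPM in RL7_ML and at 51.1, 51.1, 47.4 and 52.8 CPM in RL7_M, a log2 fold change of −0.27 ± 0.08 and −0.25 without RL7_M 4. In these 3 genes the groups did not overlap, which their choice required, although the gap was only a few CPM.

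The other 8 lower genes were Phf8 (a histone demethylase), Hacd2 and Fads1 (enzymes of fatty acid elongation and desaturation), Adat1 (a tRNA deaminase), Mxd1 (a repressor that pairs with MAX), Npy1r (a neuropeptide Y receptor), Txndc11 and Aldh1l1 (an enzyme of folate metabolism). Their log2 fold changes lay between −1.02 for Hacd2 and −0.34 for Phf8. Hacd2 stood at 1.56, 2.07, 2.51 and 2.42 CPM in RL7_ML and at 2.97, 2.53, 2.71 and 9.08 CPM in RL7_M, so that RL7_M 4 set most of the difference, and without it the value was −0.35. Npy1r stood at 1.45, 0.66, 1.18 and 1.49 CPM in RL7_ML and at 2.25, 1.97, 2.00 and 2.30 CPM in RL7_M, and its log2 fold change was −0.84 with all 8 libraries and −0.81 without RL7_M 4. Across the 12 lower genes RL7_M 4 was the most extreme RL7_M library in 10, and 8 had an unadjusted p under 0.05 without it.

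On the higher side the first gene was Zfp65, a zinc finger gene, at 8.18, 6.95, 8.52 and 6.33 CPM in RL7_ML and 5.61, 5.72, 5.47 and 2.80 CPM in RL7_M. Its log2 fold change was 0.62 ± 0.18 with an unadjusted p of 0.00116 and an edgeR adjusted p of 1.00. Yes1, a Src-family kinase, stood at 20.8, 21.3, 21.3 and 18.9 CPM in RL7_ML and at 17.1, 17.7, 15.9 and 10.5 CPM in RL7_M. The log2 fold change of Yes1 was 0.43 ± 0.14, and 0.28 without RL7_M 4. Trpc1, a cation channel subunit, stood at 2.91, 1.80, 2.51 and 2.06 CPM in RL7_ML and at 0.911, 1.11, 1.68 and 1.67 CPM in RL7_M. Its lowest RL7_M library was RL7_M 1 and not RL7_M 4, and its log2 fold change was 0.78 ± 0.26, or 0.91 without RL7_M 4. Mrps26, a mitochondrial ribosome protein, stood at 10.7, 9.89, 8.67 and 7.88 CPM in RL7_ML and at 7.67, 5.11, 7.04 and 7.31 CPM in RL7_M, a log2 fold change of 0.45 ± 0.16.

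The other higher genes reported here were Zfp40, Zfp944 and Zbtb41 (zinc finger genes), Esco1 (a cohesin acetyltransferase), Cbr4 (a reductase of mitochondrial fatty acid synthesis), Cdkl3 (a protein kinase) and Ankrd26, with log2 fold changes from 0.34 for Cbr4 to 1.12 for Zfp40. RL7_M 4 was the lowest RL7_M library in 10 of the 12 higher genes, and 6 of the 12 had an unadjusted p under 0.05 without it. The annotation gives exons shared with another gene for Mapk1ip1l, Hacd2, Txndc11, Aldh1l1, Yes1 and Mrps26 on the opposite strand, so their values are uncertain in the same way as those of Rabep2. Ppp1r10 and Aldh1l1 share exon bases with another gene on their own strand. The single genes named from the lists below, other than the fixed panel of muscle, matrix, drug-response and contamination genes, were chosen after their values were seen.

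**Figure D2:**
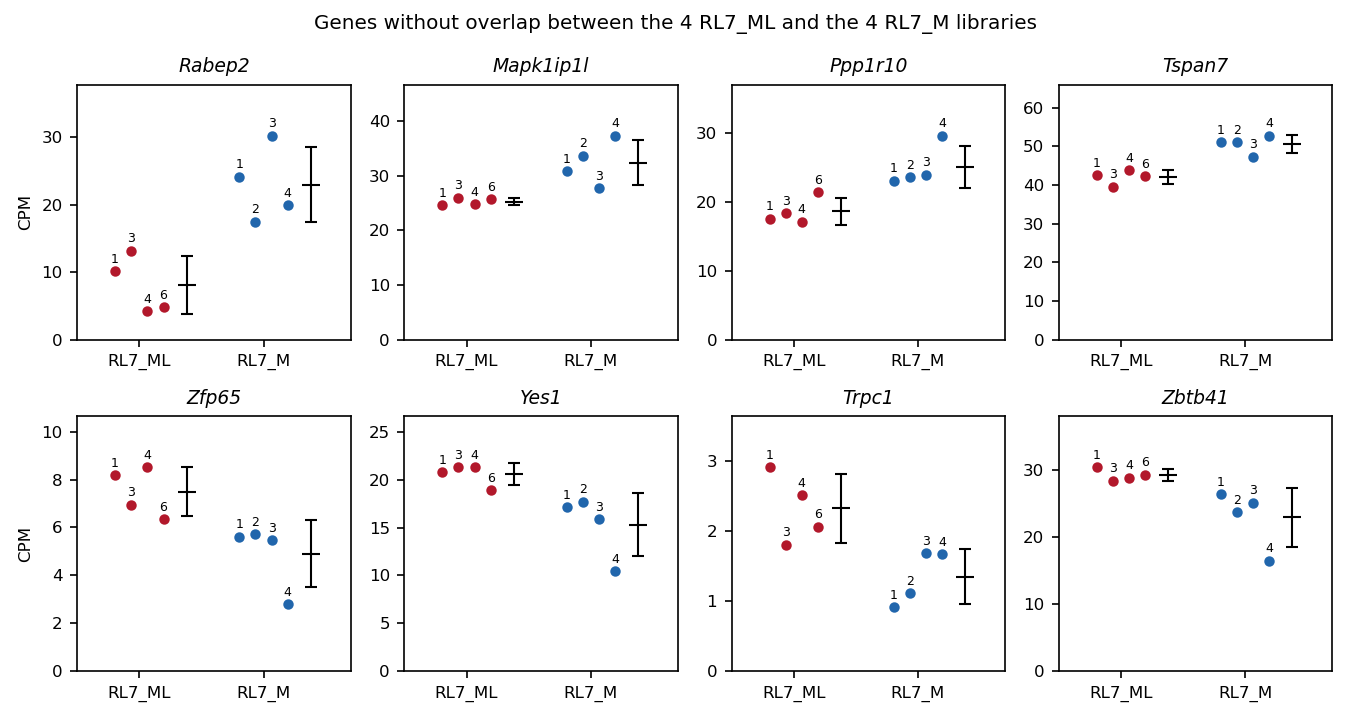
CPM of 8 genes whose libraries did not overlap, with 4 RL7_ML libraries (red) left of 4 RL7_M libraries (blue), replicate numbers above the points, and the mean with its SD as a black bar; each axis starts at 0. Rabep2 shows the widest gap (8.10 CPM in RL7_ML against 22.96 CPM in RL7_M), and RL7_M 4 is the extreme RL7_M library for Mapk1ip1l, Ppp1r10, Tspan7, Zfp65, Yes1 and Zbtb41.

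No gene of the pathways through which the drugs are known to act passed the test. Of the 12 subunits and regulators of AMP-activated kinase tested, none had an unadjusted p under 0.05, 6 lay on each side of 0, and the median log2 fold change was −0.01. Prkaa1, 1 of the catalytic subunits, stood at 16.96, 16.5, 17.5 and 13.5 CPM in RL7_ML and 16.7, 17.3, 14.5 and 17.7 CPM in RL7_M. Its 95% interval ran from −0.23 to 0.15 on the log2 scale. Prkaa2, the catalytic subunit that dominates in muscle, stood at 483, 411, 477 and 455 CPM in RL7_ML and 495, 515, 418 and 295 CPM in RL7_M, with a 95% interval from −0.17 to 0.33. Of 24 genes of amino acid sensing and mTORC1 control, including Mtor, Rptor, the sestrins and the Rag GTPases, none had an unadjusted p under 0.05, and the median was 0.02. Mtor itself had a log2 fold change of −0.02 ± 0.12 and Lars, the leucyl-tRNA synthetase, one of 0.20 ± 0.11. The branched-chain amino acid breakdown genes, which process leucine itself, had a median of 0.03 over 19 of 20 listed members, 13 above and 6 below 0, with none under an unadjusted p of 0.05. Bckdha and Bckdk, a subunit of the branched-chain ketoacid dehydrogenase and the kinase that inhibits that complex, had log2 fold changes of 0.01 ± 0.23 and 0.08 ± 0.18.

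The lists of the translation and stress pathways downstream had medians near 0 with all 8 libraries. The 21 cytosolic ribosomal protein genes had a median of 0.03. The 15 ATF4 and integrated stress response genes tested had a median of −0.02, with log2 fold changes from −1.37 to 1.02, and a median of 0.19 without RL7_M 4. Asns (−0.92 ± 0.44) and Phgdh (−1.37 ± 0.51), both enzymes of amino acid synthesis, had an unadjusted p under 0.05, as did 2.29% of all genes on the lower side. Without RL7_M 4 their values were 0.02 and 0.38, and neither had. Atf4, the transcription factor of that response, stood at 69.4, 50.2, 52.8 and 43.5 CPM in RL7_ML and at 51.1, 44.7, 50.999 and 39.3 CPM in RL7_M, a log2 fold change of 0.21 ± 0.13, and 0.06 without RL7_ML 1. Ddit4, an mTORC1 inhibitor, had one of −0.24 ± 0.53.

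Immediate early genes, which switch on within minutes of stimulation of a cell, lay below 0 as a list, and none passed the test. All 13 lay below 0, with a median log2 fold change of −0.41 against 0.01 over all genes, of which 47.1% lay below 0. Of the 13, 4 had an unadjusted p under 0.05 (2.29% of all genes did so on the lower side), none passed the edgeR adjustment, and in none did the groups fail to overlap. Fos, a transcription factor subunit, stood at 1.61, 1.32, 0.936 and 3.40 CPM in RL7_ML and at 3.16, 4.00, 33.8 and 9.66 CPM in RL7_M. RL7_ML 6 lay above RL7_M 1, and RL7_M 3 was the highest by far. The log2 fold change of Fos was −2.80 ± 0.67 with an unadjusted p of 1.48e-04 and an edgeR adjusted p of 0.494. It was −2.91 without RL7_M 4 and −1.65 without RL7_M 3.

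Fosb stood at 0.108, 0.308, 0.345 and 0.309 CPM in RL7_ML and at 0.24, 0.354, 3.14 and 1.22 CPM in RL7_M, so that RL7_M 1 lay within the range of the combination and RL7_M 2 just above it. Egr1, a zinc finger transcription factor, stood at 5.87, 10.03, 13.9 and 12.8 CPM in RL7_ML and at 10.3, 14.7, 42.9 and 21.1 CPM in RL7_M. Btg2, which restrains proliferation, stood at 7.21, 7.04, 8.47 and 8.14 CPM in RL7_ML and at 7.81, 7.49, 21.1 and 13.003 CPM in RL7_M. In these genes, too, RL7_M 3 was highest and RL7_M 4 came next. The log2 fold changes were −2.16 ± 0.79 for Fosb, −1.06 ± 0.40 for Egr1 and −0.68 ± 0.31 for Btg2. Without RL7_M 3 they were −1.17 for Fosb, −0.54 for Egr1 and −0.30 for Btg2. The mean log2 CPM of the 13 genes ran from 2.23 to 2.39 in RL7_ML and from 2.26 to 3.60 in RL7_M, and RL7_M 3 was the highest of the 8 libraries in 8 of the 13 genes. The list's median was −0.19 without RL7_M 3 and −0.32 without RL7_M 4.

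Genes of fat synthesis and of adipocytes had large differences that rested on RL7_M 4. Fasn, the fatty acid synthase, stood at 14.7, 81.0, 29.5 and 62.8 CPM in RL7_ML and at 60.9, 40.6, 25.1 and 1082 CPM in RL7_M 1 to 4. Acaca, the acetyl-CoA carboxylase of fatty acid synthesis, stood at 31.3, 46.8, 31.2 and 35.2 CPM in RL7_ML and at 35.3, 34.9, 30.8 and 249.5 CPM in RL7_M. Acly, which makes cytosolic acetyl-CoA from citrate, stood at 11.9, 20.01, 13.1 and 14.4 CPM in RL7_ML and at 14.0, 15.3, 15.4 and 101 CPM in RL7_M. RL7_M 1, 2 and 3 lay within the range of RL7_ML for Fasn and Acly, and for Acaca RL7_M 3 lay just below it. RL7_M 4 was far above every other library in all 3 genes. The log2 fold changes were −2.68 ± 0.79, −1.28 ± 0.34 and −1.29 ± 0.34 with all 8 libraries, and 0.15, 0.10 and 0.00 without RL7_M 4. Of the 16 genes of fatty acid and triglyceride synthesis, 15 lay below 0 with a median of −0.54, and 7 had an unadjusted p under 0.05. Without RL7_M 4 the median was 0.02 and none had.

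The adipocyte markers followed the same library. Plin1, a coat protein of fat droplets, stood at 2.48, 10.9, 4.14 and 9.78 CPM in RL7_ML and at 5.27, 7.03, 2.22 and 127 CPM in RL7_M. Adipoq, the fat-cell hormone adiponectin, stood at 2.31, 10.03, 3.74 and 5.30 CPM in RL7_ML and at 4.51, 3.79, 3.14 and 72.4 CPM in RL7_M. Both genes overlapped between RL7_ML and the other 3 RL7_M libraries. RL7_M 4 was the highest of the 8 libraries in 13 of the 14 markers. The list's median was −1.55 with 9 members under an unadjusted p of 0.05, against 0.35 with none, and 12 of 14 above 0, without RL7_M 4. In whole muscle, fewer cells of a type and less RNA per cell cannot be told apart. Red blood cell transcripts summed to 5.25 to 8.37 CPM in RL7_ML and to 32.3 CPM in RL7_M 4, against 5.08 to 12.02 CPM in the other RL7_M libraries. Their part in the values above was not tested. When the liver-transcript libraries were left out, which leaves RL7_M 3 and 4 as the only metformin libraries, 17 genes passed the edgeR adjustment, among them Acly, Acaca, Fos and Rabep2 on the lower side. With RL7_M 4 left out as well, 0 passed, but RL7_M 3 was then the only metformin library, with its spread assumed to be that of the other groups.

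**Figure D3:**
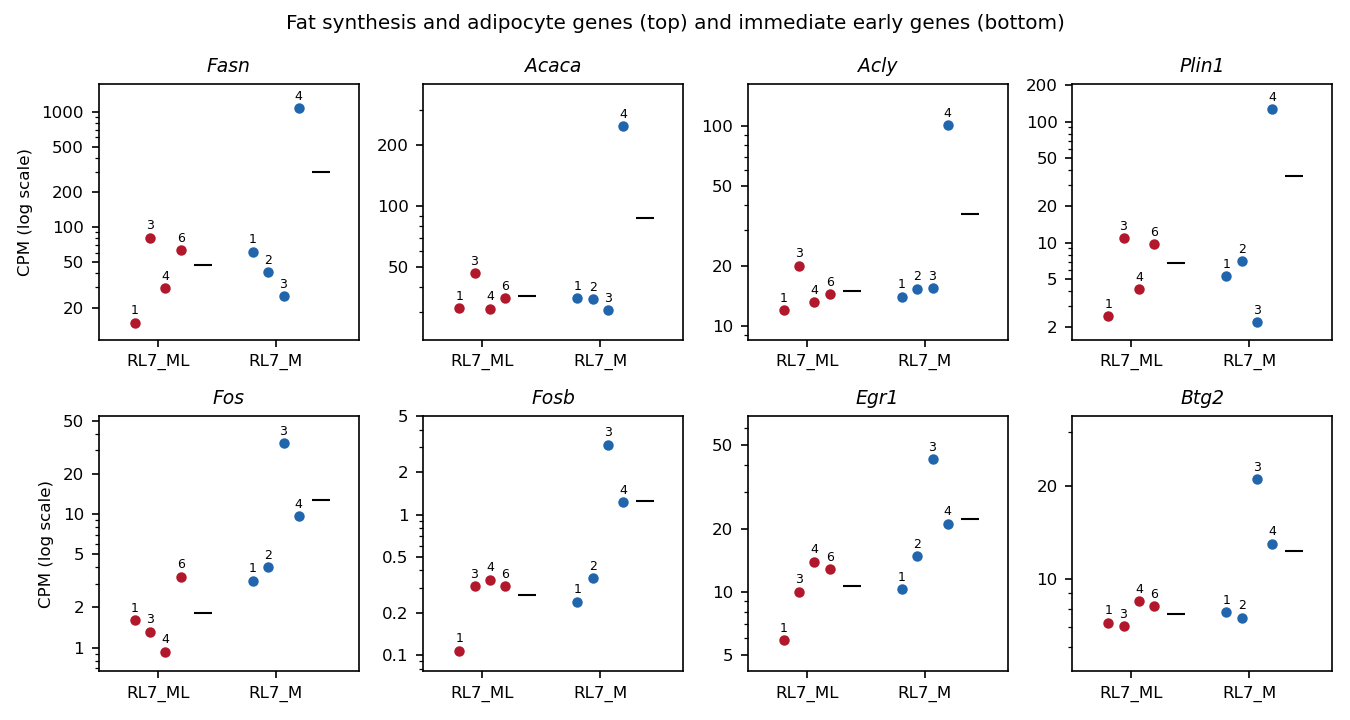
CPM on a log axis of 4 fat-related genes (top) and 4 immediate early genes (bottom), with RL7_ML (red) left of RL7_M (blue), replicate numbers above the points and a black bar for the mean. In the top row RL7_M 4 alone is high (1082 CPM for Fasn), and in the bottom row RL7_M 3 is highest and RL7_M 4 next.

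Genes of muscle wasting, stem cells and matrix, which are known to respond to unloading and reloading, had medians near 0 with all 8 libraries. The ubiquitin ligase genes Trim63 and Fbxo32, which mark muscle wasting, stood at 110 to 159 and 310 to 462 CPM in RL7_ML and at 98.7 to 140 and 262 to 450 CPM in RL7_M. Their log2 fold changes were 0.09 ± 0.25 and 0.15 ± 0.23. The median of the 20 ubiquitin ligase, FoxO and proteasome genes was 0.05, with none under an unadjusted p of 0.05. Foxo1, a transcription factor of this programme, had a log2 fold change of −0.35 ± 0.21, and −0.19 without RL7_M 4. Of 16 satellite cell and myogenic factor genes, 15 were tested and their median was −0.09. Pax7, the marker of satellite cells, stood at 2.21, 2.46, 2.56 and 1.65 CPM in RL7_ML and 2.54, 2.83, 2.38 and 2.44 CPM in RL7_M (−0.20 ± 0.27), and Myod1, a myogenic determination factor, had a log2 fold change of −0.14 ± 0.28.

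The 22 fibrillar collagen and matrix genes had a median of −0.04, or 0.13 without RL7_M 4. Col1a1 stood at 32.7, 112, 44.7 and 42.6 CPM in RL7_ML and at 26.1, 46.9, 112 and 64.6 CPM in RL7_M, with 1 high library in each group, and a log2 fold change of −0.10 ± 0.53. Col3a1 had one of 0.04 ± 0.42. The 14 basement membrane genes had a median of −0.07, and the 24 matrix proteases, inhibitors and crosslinkers one of −0.02. Without RL7_M 4 these medians were 0.10 and 0.06. Timp4, a matrix protease inhibitor whose exons overlap those of Syn2 on the opposite strand, stood at 16.8, 10.6, 11.6 and 8.96 CPM in RL7_ML and at 15.7, 13.2, 22.8 and 24.3 CPM in RL7_M (−0.67 ± 0.21, unadjusted p 0.00262, edgeR adjusted p 1.00).

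Most genes of energy metabolism lay above 0. All 23 nuclear-encoded respiratory chain subunits were above 0, with log2 fold changes from 0.09 to 0.33, a median of 0.18 and none under an unadjusted p of 0.05. RL7_ML 1 was the highest of the 8 libraries in 21 of the 23, and the median was 0.09 without RL7_ML 1 and 0.14 without RL7_M 4. Cox4i1, a subunit of cytochrome oxidase, stood at 218, 160, 180 and 152 CPM in RL7_ML and at 156, 155, 159 and 177 CPM in RL7_M, so that the groups overlapped. Of the 13 mitochondrially encoded subunits, 12 were above 0 with a median of 0.30, and 0.08 without RL7_M 4, the lowest library in 11 of the 13. Of the 13, 3 had an unadjusted p under 0.05 on the higher side (1.52% of all genes did), and 1, mt-Co3, without RL7_M 4. They were mt-Nd5, mt-Co3 and mt-Atp8, each of which shares bases with a neighbouring gene. mt-Co3, a subunit of cytochrome oxidase, stood at 49.8, 162, 145 and 42.8 CPM in RL7_ML and at 56.4, 58.9, 49.8 and 26.6 CPM in RL7_M (1.06 ± 0.40). mt-Atp8, a subunit of ATP synthase, stood at 72.1, 24.5, 35.996 and 15.4 CPM in RL7_ML and at 16.5, 19.5, 16.8 and 7.59 CPM in RL7_M (1.29 ± 0.55, and 0.74 without RL7_ML 1). In both genes the groups overlapped. mt-Nd5, a subunit of complex I, stood at 10470, 13377, 13288 and 8837 CPM in RL7_ML and at 10427, 8148, 9442 and 3457 CPM in RL7_M, and had a log2 fold change of 0.55 ± 0.27 with all libraries and 0.30 without RL7_M 4. Ppargc1a, the coactivator of mitochondrial biogenesis that AMP-activated kinase is known to induce, had a log2 fold change of 0.20 ± 0.29, and 0.02 without RL7_M 4.

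The 16 glycolysis and glycogen genes had 15 members above 0 and a median of 0.19, with 1 under an unadjusted p of 0.05. That gene was Pgk1, the phosphoglycerate kinase, at 395, 274, 322 and 319 CPM in RL7_ML and 287, 249, 287 and 190 CPM in RL7_M (0.37 ± 0.17, unadjusted p 0.0319). Pkm, the muscle pyruvate kinase, was the member whose groups did not overlap, with 1811 to 2384 CPM in RL7_ML and 1689 to 1773 CPM in RL7_M (0.24 ± 0.13, and 0.14 without RL7_ML 1). RL7_ML 1 was the highest library in 13 of the 16 glycolysis genes, and the median was 0.13 without it. The 20 fatty acid oxidation and PPAR target genes had a median of 0.18 with 16 above 0, which was 0.06 without RL7_ML 1, 0.08 without RL7_M 1 and 0.10 without RL7_M 2. Pdk4, which diverts pyruvate from oxidation, stood at 656, 510, 332 and 621 CPM in RL7_ML and at 196, 403, 530 and 602 CPM in RL7_M, a log2 fold change of 0.29 ± 0.41.

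Fibre-type genes varied widely within each group. Myh7, the slow myosin heavy chain, stood at 248, 42.8, 42.4 and 278 CPM in RL7_ML and at 128, 80.2, 474 and 458 CPM in RL7_M. In each group 2 libraries were high and 2 low, and the log2 fold change was −0.90 ± 1.11. Of the 14 slow-twitch genes, 12 lay below 0 with a median of −0.53, and the value lay between −0.28 and −0.27 when RL7_ML 3, RL7_ML 4, RL7_M 3 or RL7_M 4 was left out, and was −0.84 without RL7_ML 1. Of the 13 fast-twitch genes, 10 lay above 0 with a median of 0.22, which was 0.05 without RL7_ML 1 and 0.14 without RL7_M 4. Myh4 had a log2 fold change of 0.22 ± 0.16, and 0.12 without RL7_ML 1.

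Among other cell types, all 15 macrophage markers lay below 0, with a median of −0.46, none under an unadjusted p of 0.05, and medians of −0.29 without RL7_ML 4, −0.23 without RL7_M 3 and −0.19 without RL7_M 4. Cd68, a lysosomal macrophage protein, stood at 2.31, 2.81, 0.886 and 2.83 CPM in RL7_ML and at 1.34, 2.17, 6.06 and 5.69 CPM in RL7_M. Every macrophage gene had its highest value in RL7_M 3 or 4, which held 9 and 6 of them, and RL7_ML 4 was lowest in 11. The mean log2 CPM of the list ran from 1.45 to 2.33 in RL7_ML and from 1.67 to 3.02 in RL7_M. Of 8 neutrophil markers 3 were tested, with a median of −1.08 and −0.23 without RL7_M 4. Of 10 T and B cell markers only Ighm, an antibody heavy chain, passed the filter, and its log2 level was 7.80 to 8.24 in RL7_ML and 7.45 to 8.25 in RL7_M.

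Schwann cell and myelin genes lay on the other side. Of 10 genes, 9 were above 0 and the median was 0.71, and none passed the edgeR adjustment. RL7_ML 4 was the highest library in 9 of the 10 genes, and the median was 0.12 without it. The 12 endothelial markers had a median of 0.04 with 6 above 0, and of 0.16 with 12 above 0 without RL7_M 4. The 14 fibroblast and fibro-adipogenic progenitor markers had one of 0.01 with 8 above 0, and of 0.10 with 11 above 0 without RL7_M 4. The 9 pericyte and smooth muscle markers had one of 0.22 (0.13 without RL7_M 4 and −0.23 without RL7_ML 3). The 10 tendon and joint lubrication genes had one of −0.00, and 0.07 without RL7_M 4. The smooth muscle genes Acta2 and Myh11 were high in RL7_ML 3, at 41.3 and 64.4 CPM, against 11.3 to 12.8 and 17.7 to 21.2 CPM in the other RL7_ML libraries. Cldn5, an endothelial junction protein, was the 1 endothelial gene whose groups did not overlap, at 6.78, 3.96, 4.09 and 4.27 CPM in RL7_ML and 3.40, 2.78, 3.52 and 3.84 CPM in RL7_M (0.49 ± 0.22, unadjusted p 0.0296, edgeR adjusted p 1.00, and 0.27 without RL7_ML 1).

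The lists for autophagy, heat shock proteins, NRF2 targets, interferon-stimulated genes, the circadian clock, insulin signalling, myostatin signalling and the neuromuscular junction had medians between −0.05 and 0.07. Without RL7_M 4 they lay between −0.07 for the clock genes and 0.13 for the interferon-stimulated genes. Of the 15 interferon-stimulated genes 13 were then above 0 (9 with all 8 libraries), and of the 16 clock genes 14 were below 0 (9 with all 8 libraries). The 15 stretch-responsive sarcomere genes had a median of −0.13, and 0.09 without RL7_M 4. Xirp2, a stretch-responsive actin-binding protein of the sarcomere, stood at 6337, 6022, 5878 and 4843 CPM in RL7_ML and at 5352, 3117, 4981 and 1072 CPM in RL7_M (0.67 ± 0.26, and 0.36 without RL7_M 4). All 16 liver transcripts lay below 0 with a median of −3.69, and −1.65 without RL7_M 2, and Alb had a log2 fold change of −3.72 ± 2.00. Of the 16, 4 had an unadjusted edgeR p under 0.05, and 6 without RL7_M 4.

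Over all 43 lists, 42 had at least 3 members tested. Of these, 22 had a median within 0.1 of 0, 25 had no member under an unadjusted p of 0.05, and the median of 11 lists changed sign when RL7_M 4 was left out. The 621 different genes tested in the lists held 7 higher in RL7_ML (1.13%) and 36 lower (5.8%) under an unadjusted p of 0.05, against 1.52% and 2.29% of all genes. Without RL7_M 4 they held 6 higher (0.966%) and 13 lower (2.09%), against 0.851% and 1.22% of all genes. Of those 13 lower genes, 6 were liver transcripts and 3 were immediate early genes.

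**Figure D4:**
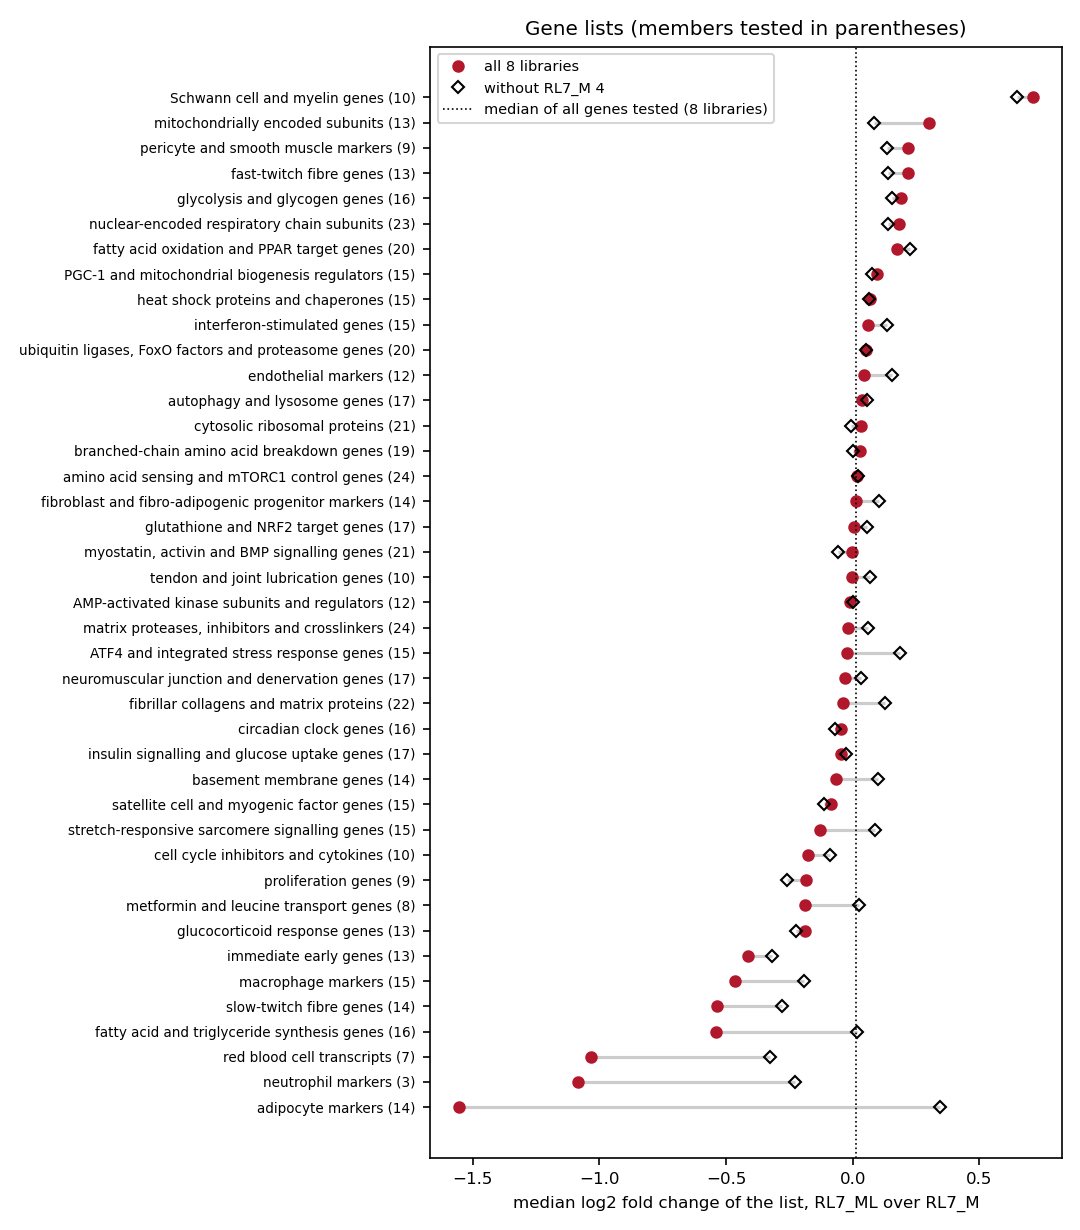
Median log2 fold change of RL7_ML over RL7_M for each list with at least 3 members tested (liver transcripts, at −3.69, are left off the axis), with all 8 libraries (red) and without RL7_M 4 (open diamonds), and the median of all genes as a dotted line. Adipocyte markers move to 0.35 from the lowest place when RL7_M 4 is left out, while immediate early genes lie at −0.32 and Schwann cell genes at 0.65. These 2 lists leaned on other libraries. RL7_M 3 was highest in 8 of 13 immediate early genes and RL7_ML 4 in 9 of 10 Schwann cell genes. Each median moved toward 0 without that library.

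The same drinks were compared in the unloaded state and at 14 d of reloading, in other mice. With the same test, 25 genes (0.15%) differed between HU_ML and HU_M and 4 (0.024%) between RL14_ML and RL14_M. The test of the difference itself called 0 genes between 7 d and the unloaded state (1087 with an unadjusted p under 0.05, edgeR) and 0 between 7 d and 14 d (1074). DESeq2 called 10 genes in the first of these tests, among them the liver transcripts Ahsg, Fga and Fgb, and 2 in the other, the small RNA genes Vaultrc5 and Gm23935. By edgeR with all libraries, therefore, no gene called at one stage and not at 7 d was shown to differ between the stages.

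Of the 13 immediate early genes, 10 lay below 0 in unloaded muscle, with a median log2 fold change of −0.48, and 7 at 14 d, with a median of −0.01. Over all genes these medians were 0.01 and 0.03. Fos stood at 1.01, 3.72, 1.65 and 4.99 CPM in HU_ML and at 26.3, 13.1, 24.6 and 7.46 CPM in HU_M, and these groups did not overlap. Its log2 fold change was −2.64 ± 0.64 in the unloaded state (edgeR adjusted p 0.0655), −2.80 at 7 d and −0.74 ± 0.64 at 14 d. Fosb and Egr1 passed the test in the unloaded state (−4.35 and −2.15, edgeR adjusted p 0.0252 and 0.0332), and their values at 14 d were −0.49 and 0.26. The difference in the Fos effect between 7 d and the unloaded state had an edgeR adjusted p of 0.972, and that between 7 d and 14 d one of 0.753. At 7 d the mean Fos level was also low with leucine alone (2.56 ± 0.88 CPM) and higher with water (15.7 ± 7.97 CPM; SD, n = 4 each).

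The genes named at 7 d did not all keep their side of 0 at the other stages. Rabep2 had a log2 fold change of −0.47 ± 0.34 in the unloaded state and −0.35 ± 0.32 at 14 d, and the test of its difference gave edgeR adjusted p values of 0.756 and 0.753. Mapk1ip1l had −0.26 ± 0.08 in the unloaded state and 0.09 ± 0.08 at 14 d, and Tspan7 had −0.27 ± 0.08 and −0.01 ± 0.08. Of the 12 lower genes, 8 were below 0 in the unloaded state and 6 at 14 d. Of the 12 higher genes, 4 were above and 8 below 0 in the unloaded state, and 2 were above and 10 below 0 at 14 d. RL14_ML 1 was the lowest RL14_ML library in all of these higher genes but Trpc1 and Mrps26. Zfp944 stood at 2.88, 7.96, 10.5 and 14.7 CPM in RL14_ML 1, 3, 4 and 6. Esco1 stood at 8.03, 20.6, 20.6 and 24.998 CPM in the same libraries. Their RL14_M means were 10.3 and 20.6 CPM. Whether the signs at 14 d hold without RL14_ML 1 was not tested.

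**Figure D5:**
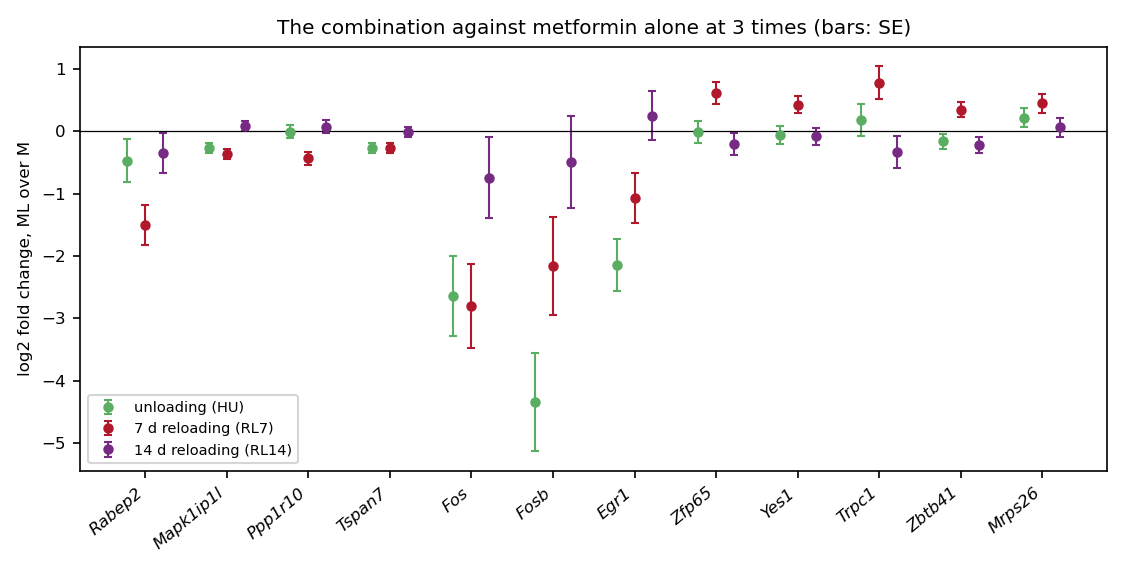
Log2 fold change of the combination over metformin alone, with its SE, for 12 genes in the unloaded state (green), at 7 d (red) and at 14 d of reloading (purple). Fos lies at −2.64, −2.80 and −0.74 at the 3 stages, while genes such as Zfp65 and Zbtb41 are above 0 at 7 d only. For Zfp65 and Zbtb41, RL14_ML 1 was the lowest RL14_ML library.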

How the data were processed

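Raw read counts per gene were deposited by the authors in 1 table of 55487 genes and 52 libraries, all of which were mapped to a sample. Per the labels' protocols, stranded total RNA libraries were made after ribosomal RNA removal. The submitters' processing notes name GRCm38, STAR 2.7.3a, featureCounts 1.6.3 and DESeq2 1.30.0. The strand setting and annotation release are not given in the sources used here. Symbols and positions came from GENCODE vM21 (GRCm38), which matched 55227 identifiers.

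Counts were fitted in R 4.3.3 with edgeR 4.0.16 (TMM scaling, genes kept by filterByExpr at a minimum count of 10, robust quasi-likelihood F-test) in 1 model of 13 groups over all 52 libraries, with Benjamini-Hochberg adjustment over the 16668 genes kept and a threshold of 0.05. The SE is the absolute log2 fold change over the square root of F. The effect of the combination against metformin alone was also compared between stages by interaction contrasts. DESeq2 1.42.0, limma 3.58.1 (voom with quality weights), other scaling, filters, covariates and sets of libraries were alternatives. The scripts were tested on simulated data. Named genes are the 12 per direction of smallest p with average log2 CPM of at least 1, libraries that do not overlap and no clone name, since no gene passed the threshold, plus a fixed panel. The comparison and the 43 gene lists were chosen with earlier results of these data known. Intervals rest on the spread between libraries, estimated over all 13 groups. Some single-gene results are not reported here.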

Additional observations from a re-analysis of the deposited data

Results flagged for a closer look

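Of 210 groups of 4 libraries examined, 28 had 1 library far from the other 3 by Dixon's criterion. Chance alone flags about 1 in 20 of unselected, independent groups. Many of the genes examined were chosen by their values in these same libraries, and the lists share genes with them. The count therefore cannot be set against that rate. Of the 28, 18 were library RL7_M 4.

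In RL7_ML, Col1a1 was 112 CPM in RL7_ML 3 (next 44.7), and matrix proteases averaged 3.56 log2 CPM there (next 3.26). RL7_ML 4 stood out for Alb at 9.85 CPM (next 0.721), for the liver transcripts at a mean log2 CPM of −0.017 (next −1.82), and for Zfp40 at 2.86 CPM (next 1.83). RL7_ML 1 was high for Cldn5 at 6.78 CPM (next 4.27) and low for Phf8 at 11.6 CPM (next 14.5) and Fosb at 0.108 CPM (next 0.308).

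In RL7_M 4 the fat-related genes were high: Fasn at 1082 CPM (next 60.9), Acaca at 249.5 (next 35.3), Acly at 101 (next 15.4), Plin1 at 127 (next 7.03), Adipoq at 72.4 (next 4.51) and Pck1, an enzyme of glucose and glycerol synthesis, at 127 (next 5.16). The adipocyte markers averaged 6.71 log2 CPM (next 3.86) and the fat synthesis genes 6.14 (next 4.58). Gpx3, a secreted glutathione peroxidase, was at 239 CPM (next 115), and the glutathione and NRF2 target genes averaged 4.56 log2 CPM (next 4.12). Ppp1r10 at 29.6 CPM (next 23.9), Hacd2 at 9.08 (next 2.97) and Ddit4 at 4.15 (next 2.17) were also high in RL7_M 4. The same library was low for Zfp65 at 2.80 CPM (next 5.47), Cbr4 at 6.502 (next 10.3), Ankrd26 at 3.66 (next 5.87) and Myod1 at 7.63 (next 11.9), and its mitochondrially encoded subunits averaged 8.22 log2 CPM (next 9.11).

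Alb was 124 CPM in RL7_M 2 (next 16.7), and the PGC-1 and mitochondrial biogenesis regulators averaged 4.29 log2 CPM in RL7_M 3 (next 4.08).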

How the results depend on the processing

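The count of genes called in RL7_ML against RL7_M was 0 with edgeR, except that it was 17 with the liver-transcript libraries left out. DESeq2 called 1 and limma voom 4, and leaving out each replicate in turn gave 0 to 0. For the differences between stages, DESeq2 called 10 genes for the unloaded state and 2 for 14 d, and leaving out replicates gave 0 to 1 (Nr1d1 without HU_M 4, Gm38034 without HU_ML 4) and 0 to 3 (without RL14_ML 3, 4 or 6). Same-numbered libraries did not pair (r of 0.198, 0.05 and −0.238), and a replicate block with the groups compared alone called 0 genes and moved Prkaa1 to 0.031.

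Other log2 fold changes of RL7_ML against RL7_M also turned sign. The 5.8S rRNA covariate gave 0.016 for Myod1, −0.00997 for Trim63 and 0.032 for Atp2a1. The adipocyte covariate, the mean log2 CPM of the adipocyte markers, gave 0.22 for Adipoq and 0.19 for Plin1. Both genes are among those markers, so part of this change is built in. Leaving out the liver-transcript libraries gave 0.031 for Myod1, −0.29 for Col3a1, 0.0013 for Prkaa1, 0.57 for Alb and 0.011 for Atp2a1. Leaving out RL7_M 4 too, which leaves RL7_M 3 as the only metformin library, gave −0.24 for Col3a1, 0.00749 for Ddit4, 0.15 for Prkaa1, 8.71 for Alb (at 0 counts in RL7_M 3, so that this value depends on the prior count and is no bound), 0.78 for Adipoq, 1.63 for Plin1, 0.91 for Fasn, 0.23 for Acaca, 0.98 for Pck1 and 0.11 for Atp2a1. With the groups compared alone and without RL7_M 4, chosen after seeing the data, the values were −0.00425 for Trim63, 0.10 for Ddit4, −0.070 for Prkaa2, 0.50 for Adipoq, 0.50 for Plin1, 0.16 for Fasn and 0.10 for Acaca. Limma voom gave 0.086 for Col1a1, −0.058 for Trim63, −0.041 for Prkaa2, 0.16 for Adipoq and 0.18 for Plin1. Leaving out each replicate in turn gave −0.23 to 0.19 for Col3a1, −0.65 to 0.34 for Col1a1, −0.46 to 0.11 for Ddit4, −0.061 to 0.18 for Prkaa2, −0.10 to 0.031 for Prkaa1, −2.49 to 0.49 for Adipoq, −2.78 to 0.50 for Plin1, −3.11 to 0.15 for Fasn, −1.57 to 0.00098 for Acly, −1.58 to 0.10 for Acaca, −0.031 to 0.16 for Trim63 and −0.079 to 0.0028 for Atp2a1. The cause of these changes was not tested.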
